A study of Danio rerio with 12 samples.

Results

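Cytokines, chemokines and their receptors were followed in regenerating zebrafish ventricles that lack a functional *grl* gene, which encodes the transcriptional repressor Hey2. The genes were taken by symbol: every chemokine ligand or receptor (*ccl*, *cxcl*, *ccr*, *cxcr*, *xcr1*, *ackr*), every interleukin or interleukin receptor (*il* and a digit) and every symbol that opens with *tnf*. *il6st* and *il11a* were left out. This rule, which used no measured value, found 150 of the 32105 genes in the table. They comprised 47 chemokine ligands, 22 chemokine receptors, 23 interleukins, 27 interleukin receptor genes, 12 ligands and 10 receptors of the tumor necrosis factor (TNF) families, and 9 genes named for their induction by TNF or their likeness to such genes.

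The comparison asked how mRNA levels in the injured heart of *grl5nt-/-* mutants differed from those of wild-type (WT) siblings. Both groups were AB fish aged 5 months whose ventricular apex had been resected, and ventricles were collected at 7 days post-amputation (dpa). Neither group was uninjured or received a drug. Each group had 3 libraries, and each library pooled the ventricles of 6 fish. The mutant allele is a small CRISPR/Cas9 deletion in the first exon that brings a premature stop codon. It is carried in every cell of the fish, not only in the heart, and the mutants sampled are those that lived to adulthood.

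Chemokines are small secreted proteins that steer cells along gradients through seven-pass receptors coupled to G proteins, while atypical receptors (Ackr) bind chemokines and remove them. Many interleukins act between leukocytes, and many of their receptors are paired chains that signal by Jak and Stat proteins. Others differ, such as Il34, a ligand of the Csf1 receptor. TNF ligands act through receptors that recruit Traf adaptors and activate NF-κB. In the resected zebrafish heart, signals of these families bring in neutrophils and macrophages and guide endothelial and epicardial cells into the wound.

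The total count was between 12520034 and 15006574 per library. Levels in CPM are counts scaled to the library total and its TMM factor, and they are listed in the order of replicates 1, 2 and 3. Detection was set at more than 3 counts, and 3 counts were worth 0.155 to 0.293 CPM. Reads on the mitochondrial gene *mt-co1* divided the libraries across the genotypes. There were 583890 such reads in WT replicate 3, 739939 in mutant replicate 2 and 593632 in mutant replicate 3, and 0 in each of the other 3 libraries. Fold changes are therefore also given within each side of this split, where each side has 3 libraries and no test. Mutant replicate 1 is the only mutant library without these reads, and WT replicate 3 is the only WT library with them. Every difference within a side thus rests on 1 library of 1 genotype. For log2 differences within or between the sides, an amount worth 2 counts in a library of mean size was added to each CPM. In scarce genes this draws them toward 0, so they are not on the scale of the fitted values. The mutated gene, listed as *hey2*, had 13.3, 10.6 and 9.95 CPM in the WT libraries and 15.6, 18.8 and 18.5 CPM in the mutant libraries. Since these levels do not lie below the WT ones, they cannot serve to check the genotype labels.

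Most of the cytokine, chemokine and receptor genes had a low level per length. Of the 150 genes, 116 had more than 3 counts in at least 1 library, 34 never did, and 11 of those had no read in any library. Over the whole table, 20118 of 32105 genes had more than 3 counts in some library and 7243 had no read. The genes followed here were thus detected more often than genes of the whole table. Per length, only 16 of the 150 genes reached a WT mean of 10 FPKM (fragments scaled to exon length and mapped reads). A further 59 lay between 1 and 10 FPKM, and 75 were under 1 FPKM. The shares of all genes in these FPKM classes were not counted. The number detected above 3 counts was 113, 99 and 90 in the WT libraries and 88, 85 and 81 in the mutant libraries. In the same order, 3 counts were worth 0.155, 0.179 and 0.235 CPM in WT and 0.205, 0.259 and 0.293 CPM in mutant libraries. The numbers detected were therefore not taken at an equal level and do not compare the genotypes. Summed over the 150 genes, the level was 1329, 1048 and 864 CPM in the WT replicates and 898, 788 and 805 CPM in mutant libraries. WT replicate 1 had the highest sum and WT replicate 3 lay below mutant replicate 1, so the groups overlapped.

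Of the 150 genes, 78 had enough reads to be tested. The filter needs reads in about as many libraries as a group holds, so a gene could pass through the group in which it was high, and the tested genes do not stand for all 150. None of the 78 passed an adjusted p below 0.05 in edgeR (quasi-likelihood test, Benjamini-Hochberg adjustment over the 15602 genes tested), where 0.0769% of all genes passed, 0.0577% lower and 0.0192% higher in the mutants. The smallest adjusted p among them was 0.124. At an unadjusted p below 0.05, 25 of the 78 (32.1%) were lower in the mutants, against 6.35% of all genes tested, and 1 (1.28%) was higher, against 4.22%. DESeq2 gave 5 of the 78 an adjusted p below 0.05, all lower in the mutants (*ccl39.5*, *il2rb*, *ccl34b.8*, *cxcl18b* and *ccl34b.4*), and limma on FPKM gave 0. DESeq2 also passed more of all 15602 genes than edgeR did, 242 beside 12.

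The lower values were spread over the families. Log2 fold changes (mutant over WT) were below 0 in 60 of the 78 genes (76.9%), against 53.1% of all genes tested. Their median was -0.60, beside -0.05 for all genes, and they ranged from -3.27 to 0.71. With limma on log2 FPKM, the median of all genes was itself -0.21 (pseudocount 1) or -0.33 (pseudocount 0.1). Signs given below for limma on FPKM are to be read beside that shift of all genes. All 3 mutant libraries lay below all 3 WT libraries in 15 of the 78 (19.2%, against 8.64% of all genes tested) and above them in 1 (1.28%, against 6.95%). Fewer cells of a type and less RNA per cell cannot be told apart in these pooled ventricles.

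**Figure D1:**
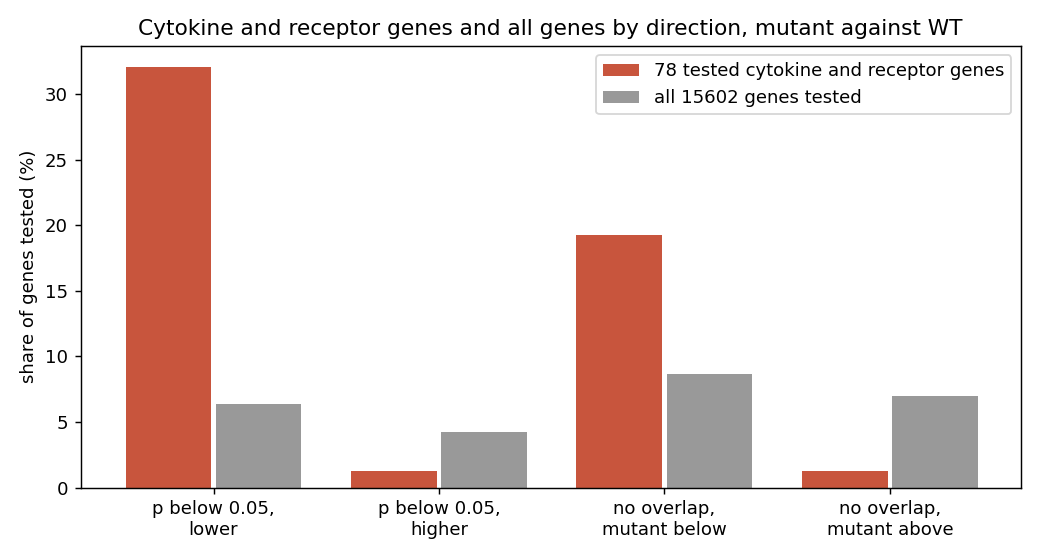
Bars show the share of tested genes (%) in each class, from a zero baseline, for the 78 tested cytokine, chemokine and receptor genes and for all 15602 genes tested. The share lower at an unadjusted p below 0.05 was 32.1% against 6.35%, and the share with no overlap and the mutant below was 19.2% against 8.64%.

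WT replicate 1 weighed on these counts. It held the highest level of the 6 libraries in 46 of the 78 genes (59.0%, against 26.0% of all genes tested). Of the 25 genes lower at an unadjusted p below 0.05, 20 were highest in it. The same share over all genes lower at that p was not counted. Without it, 10 genes (12.8%) were lower at an unadjusted p below 0.05, against 3.04% of all genes, and the median log2 fold change was -0.32, beside -0.0037 for all genes. The number was 15 of 79 tested without WT replicate 2 and 41 of 88 without WT replicate 3. There, 3.07% and 11.7% of all genes were lower at that p. Without mutant replicates 1, 2 and 3 the number was 35, 17 and 13 of 89, beside 16.6%, 3.72% and 3.40% of all genes. The levels also differed between the sides of the *mt-co1* split. Of the 78 genes, 63 were lower in the libraries that had *mt-co1* reads, against 8271 of all 15602 genes tested. The median log2 difference was -0.63, beside -0.06 for all genes. This difference took no account of genotype. Mutant libraries prevail on the side with *mt-co1* reads, so genotype and split are partly mixed in it. Within the libraries without *mt-co1* reads, 64 of the 78 genes were below 0, against 7813 of the 15602. The medians were -0.57 and -0.0007. Within the libraries with them, 44 of the 78 were below 0, against 8087 of the 15602, with medians of -0.12 and -0.02. The genes followed here thus lay closer to all genes on the side with *mt-co1* reads. Below 0 on both sides were 41 genes (52.6%, against 33.3% of all genes tested), and above 0 on both sides were 11 (14.1%, against 31.3%).

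**Figure D2:**
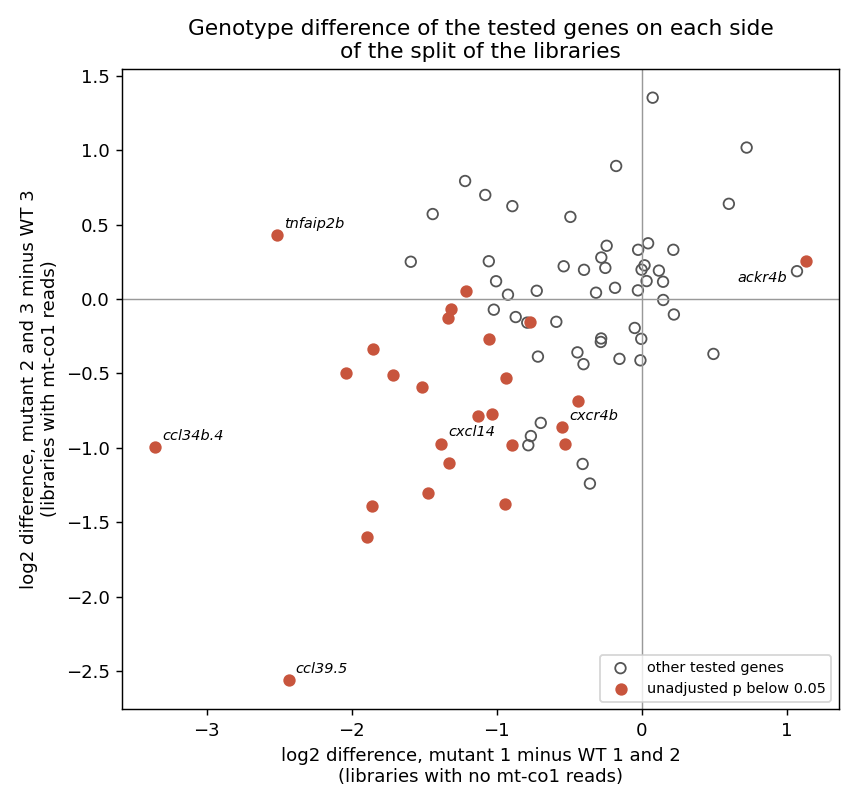
Each point is 1 of the 78 tested genes, with its log2 difference (mutant minus WT) among the 3 libraries without *mt-co1* reads on the horizontal axis and among the 3 libraries with them on the vertical axis. The lower left field, below 0 on both sides, holds 41 genes and the upper right field 11. Each axis rests on 1 library of 1 genotype, mutant replicate 1 without *mt-co1* reads and WT replicate 3 with them.

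Chemokine ligands held the 3 most negative log2 fold changes of the 78 genes. Of the 47 ligands, 37 were detected and 20 were tested. Of those 20, 14 were below 0, 7 were lower at an unadjusted p below 0.05 and none was higher, and the median log2 fold change was -0.42. Without WT replicate 1, 9 of the 20 were below 0 and the median turned to 0.03. There, 5 of the 20 were lower at that p, beside 3.04% of all genes. The 7 were 4 CC chemokines (*ccl39.5*, *ccl34b.4*, *ccl34b.8* and *ccl19a.1*) and 3 CXC chemokines (*cxcl18b*, *cxcl14* and *cxcl11.5*).

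*ccl39.5*, a CC chemokine gene on chromosome 25 (GRCz10, 12884926 to 12885688), was near the limit of detection in every mutant library. It had 26, 23 and 19 counts in WT libraries, against 2, 1 and 2 counts in mutant libraries. In CPM it had 1.35, 1.37 and 1.49 in WT and 0.137, 0.0865 and 0.195 in mutant ventricles. The WT libraries were close to each other on both sides of the *mt-co1* split, and no mutant library came near them. Summed over the libraries, its level in WT was 10.1 times that in the mutants, with a 95% exact interval of 4.14 to 32.2 that covers counting error only. Its fitted log2 fold change was -3.27 (SE 0.54, edgeR adjusted p = 0.124), and -3.30 (SE 0.54) with a term for the split. Within the split the log2 difference was -2.43 and -2.56, on the sides without and with *mt-co1* reads. At its few mutant counts, the amount added to each CPM draws these differences toward 0. It lies in a group of 10 of the 150 genes between 12745435 and 12954454 on chromosome 25, of which 7 are named *ccl39*. Those 7 summed to 53, 35 and 26 counts in WT, against 6, 3 and 4 in the mutants, and *ccl39.5* gave most of these reads in WT. Close copies in tandem can share reads, so the sum is firmer than the value of a single copy.

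On chromosome 24, *ccl34b.1*, *ccl34b.3*, *ccl34b.4*, *ccl34b.8*, *ccl34b.9* and *cxcl32b.1* lie together between 27318196 and 27433692. *ccl34b.4* had 75.2, 26.5 and 9.72 CPM in WT libraries, against 4.24, 4.06 and 5.66 CPM in mutant libraries. Every mutant library lay below every WT library, but the WT libraries themselves spread widely, with replicate 1 highest. The log2 fold change was -3.00 (SE 0.66, edgeR adjusted p = 0.205) and was -1.96 without WT replicate 1. Within the split it was -3.35 and -1.0. *ccl34b.8* had 8.33, 4.42 and 3.13 CPM in WT and 1.57, 1.38 and 0.879 CPM in mutant ventricles. Again the groups did not overlap, with a log2 fold change of -2.04 (SE 0.46, edgeR adjusted p = 0.222). *ccl34b.1*, from the same array, overlapped between the groups and had a log2 fold change of -0.52 (SE 0.33). The rest were not tested. *ccl34b.9* had 7, 3 and 1 counts in WT but 2, 9 and 16 in the mutants. *ccl34b.3* had 5, 1 and 0 against 1, 0 and 0, and *cxcl32b.1* had 28, 22 and 6 against 5, 3 and 1. The 5 *ccl34b* genes summed to 87.7, 36.5 and 17.2 CPM in WT, mostly from *ccl34b.4*, and to 8.61, 10.1 and 10.8 CPM in mutant libraries.

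*cxcl18b*, an inflammatory CXC chemokine that attracts neutrophils in zebrafish, had 90.9, 41.5 and 27.0 CPM in WT libraries, against 18.7, 19.3 and 18.6 CPM in mutant libraries. The mutant libraries were nearly level and lay below all WT libraries. Its log2 fold change was -1.50 (SE 0.41, edgeR adjusted p = 0.321), and -0.86 without WT replicate 1. *cxcl14*, a CXC chemokine conserved among vertebrates, had 12.8, 13.3 and 15.7 CPM in WT and 4.92, 10.2 and 6.15 CPM in mutant ventricles. Here WT replicate 1 was the lowest of the WT libraries, and the groups still did not overlap. The log2 fold change was -0.97 (SE 0.31, edgeR adjusted p = 0.391), with -1.38 and -0.97 within the split. *ccl19a.1* is related to mammalian CCL19, a ligand of CCR7 that gathers lymphocytes and dendritic cells. It had 3.47, 1.25 and 2.12 CPM in WT and 1.03, 0.778 and 0.683 CPM in mutant ventricles, giving a log2 fold change of -1.44 (SE 0.49, edgeR adjusted p = 0.405) without overlap.

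The *cxcl11* genes, relatives of the interferon-induced ligands of mammalian CXCR3, were high in WT replicate 1 above all. *cxcl11.5* had 9.78, 2.45 and 0.392 CPM in WT and 1.09, 0.0865 and 0.488 CPM in mutant ventricles. WT replicate 3 lay among the mutant libraries. The log2 fold change of -2.87 (SE 1.1, edgeR adjusted p = 0.431) became -1.31 without WT replicate 1. Summed over 4 *cxcl11* genes, WT replicates 1, 2 and 3 had 416, 62 and 12 counts and the mutant replicates 25, 5 and 16. *ccl25b*, whose mammalian relative draws thymocytes and gut lymphocytes, overlapped between the groups, with 36.7, 26.4 and 29.4 CPM in WT and 25, 35.0 and 26.2 CPM in mutant ventricles.

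**Figure D3:**
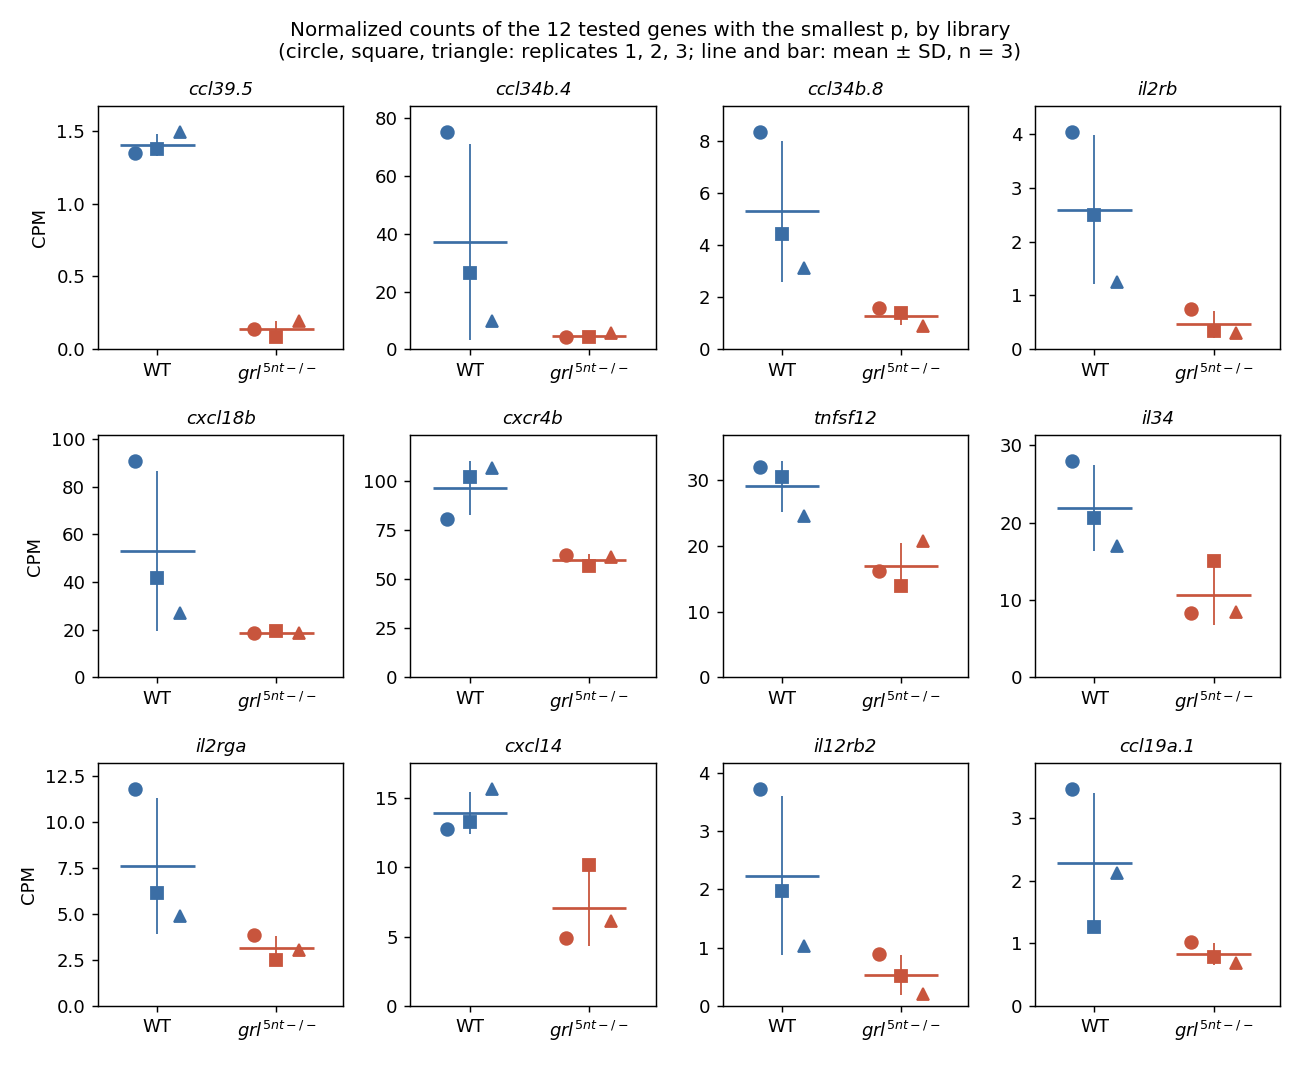
Level in CPM, on linear axes from 0, of the 12 tested genes with the smallest p, by library (circle, square and triangle are replicates 1, 2 and 3; lines and bars are the mean and SD, n = 3). In each of the 12 panels the 3 mutant libraries lie below the 3 WT libraries. WT replicate 1 is the highest library in every panel except those of *ccl39.5*, *cxcr4b* and *cxcl14*.

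Among chemokine receptors, 16 of 22 were detected and 12 were tested. Of the 12, 10 were below 0, 3 were lower and 1 was higher at an unadjusted p below 0.05, and the median log2 fold change was -0.69. The 3 became 1 of 12, 1 of 13 and 7 of 13 tested without WT replicates 1, 2 and 3, where 3.04%, 3.07% and 11.7% of all genes were lower. They became 1 of 14 without mutant replicate 3, where the share was 3.40%. The median was -0.19 without WT replicate 1. *cxcr4b*, the receptor of Cxcl12a that steers migrating cells in zebrafish, had the highest level per length of all 150 genes in WT ventricles. It had 80.9, 102 and 107 CPM in WT libraries, against 62.1, 56.6 and 61.2 CPM in mutant libraries. WT replicate 1 was the lowest WT library, and each mutant library lay below it. The log2 fold change was -0.69 (SE 0.20, edgeR adjusted p = 0.355), and it was -0.55 and -0.86 within the split.

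The other genes of the Cxcl12 system overlapped between the groups in CPM. *cxcl12a* had 61.0, 34.6 and 25.3 CPM in WT and 40.4, 25.9 and 27.5 CPM in mutant ventricles. The groups overlapped, with a log2 fold change of -0.37 (SE 0.35, edgeR adjusted p = 0.648) that was 0.07 without WT replicate 1. *cxcl12b* had 22.4, 19.1 and 11.6 CPM in WT and 22.9, 12.2 and 10.9 CPM in mutant ventricles, and its level followed the *mt-co1* split in both genotypes. Its log2 fold change was -0.20 (SE 0.36, edgeR adjusted p = 0.799). *ackr3b*, an atypical receptor that clears Cxcl12, had 22.1, 22.3 and 34.4 CPM in WT and 21.7, 34.5 and 37.2 CPM in mutant ventricles, giving a log2 fold change of 0.25 (SE 0.28, edgeR adjusted p = 0.703). It too followed the split, in the opposite direction, and its log2 fold change was below 0 with limma on FPKM. *cxcr4a*, the second *cxcr4* gene of zebrafish, was scarce, with a mean of 0.595 FPKM in WT and 0.421 FPKM in mutant ventricles, beside 63.5 and 32.6 FPKM for *cxcr4b*. Its CPM overlapped between the groups, with a log2 fold change of -0.20 (SE 0.40). In FPKM it had 0.722, 0.505 and 0.559 in WT and 0.477, 0.452 and 0.335 in mutant ventricles, and on that scale every mutant library lay below every WT library. Whether the fold change of *cxcr4b* differed from those of its ligands was not tested.

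**Figure D4:**
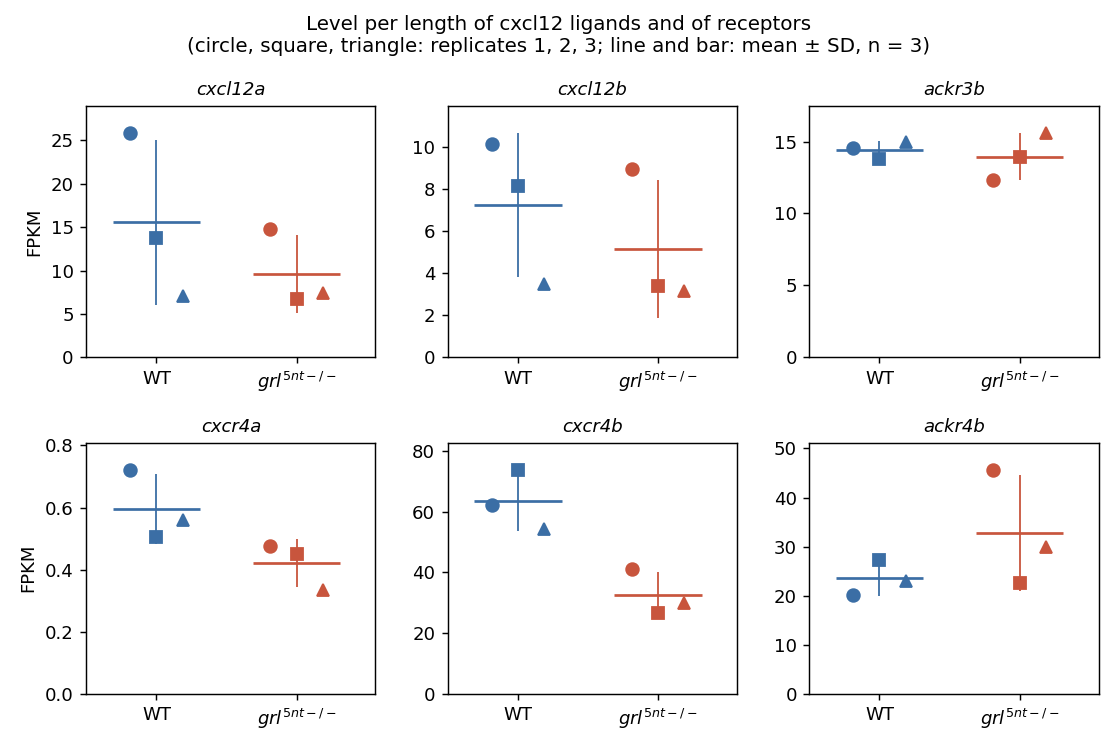
Level per length (FPKM, linear axes from 0) of *cxcl12a*, *cxcl12b* and 4 receptor genes, by library (circle, square and triangle are replicates 1, 2 and 3; lines and bars are the mean and SD, n = 3). *cxcr4b* had a mean of 63.5 FPKM in WT and 32.6 FPKM in mutant ventricles without overlap, and *cxcr4a* did not overlap either at a far lower level, whereas *cxcl12a*, *cxcl12b*, *ackr3b* and *ackr4b* overlapped on this scale.

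*ackr4b* was the single gene of the 78 that was higher in mutant ventricles at an unadjusted p below 0.05. Its mammalian relative ACKR4 removes CCL19, CCL21 and CCL25. It had 57.6, 83.2 and 100.1 CPM in WT libraries, against 152, 106 and 135 CPM in mutant libraries. All mutant libraries lay above all WT libraries in CPM, with a log2 fold change of 0.71 (SE 0.27, edgeR adjusted p = 0.429). Within the split the log2 difference was 1.13 and 0.26. In FPKM the groups overlapped, since mutant replicate 2 had 22.6 FPKM and WT replicate 2 had 27.3 FPKM.

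*ccr9a*, related to the mammalian CCL25 receptor, had 15.6, 11.2 and 9.64 CPM in WT and 6.29, 9.42 and 6.74 CPM in mutant ventricles. The groups did not overlap, though WT replicate 3 and mutant replicate 2 were close. Its log2 fold change was -0.70 (SE 0.29, edgeR adjusted p = 0.457). *ccr12a* had a log2 fold change of -1.09 (SE 0.40, edgeR adjusted p = 0.420). It was -1.32 on the side without *mt-co1* reads and -0.07 on the side with them. The *cxcr3* genes, of which *cxcr3.2* mediates macrophage migration in zebrafish, overlapped between the groups. *cxcr3.2* had 19.7, 11.8 and 10.9 CPM in WT and 12.9, 12.6 and 15.5 CPM in mutant ventricles, and *cxcr3.3* had a log2 fold change of -0.76 (SE 0.51). The symbol *cxcr3.1* is carried by 2 identifiers. The tested one had a log2 fold change of -1.52, which was -0.15 without WT replicate 1.

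Of the interleukins, 14 of 23 were detected and 6 could be tested. Of the 6, 5 were below 0 and 3 were lower at an unadjusted p below 0.05. The 3 became 1 of 6 tested without WT replicate 1 or 2, where 3.04% and 3.07% of all genes were lower. They became 1 of 7 without mutant replicate 2 or 3, where the share was 3.72% and 3.40%. *il34*, a ligand of the Csf1 receptor on which macrophages depend, had 28, 20.6 and 17 CPM in WT libraries, against 8.34, 15 and 8.40 CPM in mutant libraries. All mutant libraries lay below all WT libraries, with mutant replicate 2 the nearest to them. The log2 fold change was -1.05 (SE 0.31, edgeR adjusted p = 0.358), with -1.51 and -0.59 within the split. *il15*, known in mammals to maintain natural killer and memory T cells, had 9.06, 8.47 and 6.35 CPM in WT and 6.02, 2.68 and 3.71 CPM in mutant ventricles. The groups did not overlap but nearly met at WT replicate 3 and mutant replicate 1, and the log2 fold change was -0.94 (SE 0.35, edgeR adjusted p = 0.425). *il16*, which in mammals attracts CD4+ cells, had a log2 fold change of -1.39 (SE 0.50, edgeR adjusted p = 0.414) and overlapped. *il1b*, the inflammasome product that starts acute inflammation, was low in both groups, at 1.4, 1.31 and 0.705 CPM in WT and 0.889, 1.04 and 0.683 CPM in mutant ventricles, with a log2 fold change of -0.39 (SE 0.46, edgeR adjusted p = 0.706).

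Several well-known cytokines had too few reads to be tested. *il10*, which restrains inflammation, had 26, 0 and 0 counts in WT libraries, against 1, 0 and 0 in mutant libraries. *tnfa*, the founding TNF ligand and a marker of inflammatory macrophages in zebrafish, had 12, 6 and 1 counts in WT and 1, 5 and 1 in the mutants. *il6* had 14, 1 and 1 counts in WT and 2, 4 and 5 in the mutants. For these genes WT replicate 1 held most of the WT reads, and the depth could not show a difference among the other libraries. *il13*, a type 2 cytokine, was the exception in pattern, with 13, 19 and 9 counts in WT and 3, 7 and 5 in the mutants, which did not overlap. *il11b*, whose protein acts through Il11ra and Il6st, had 10, 3 and 0 counts in WT and 3, 3 and 1 in the mutants. *cxcl8b.1*, a neutrophil attractant, had 11, 10 and 2 counts in WT and 2, 1 and 2 in the mutants. Of the 38 detected genes that were not tested, 35 had their highest count in a WT library and 28 had it in WT replicate 1. These are raw counts, and 3 counts were worth 0.155 CPM in WT replicate 1 but 0.293 CPM in mutant replicate 3. A gene could also enter this set through the library in which it was high. The same shares over all genes were not counted, so these numbers are no support for a difference between the groups. A further 5 genes fixed for description never exceeded 3 counts, and *ackr3a*, *cxcl8a*, *cxcr1* and *ccr2* are not analysed here.

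Interleukin receptors had 20 of 27 genes detected and 15 tested. Of the 15, 12 were below 0, 7 were lower and none was higher at an unadjusted p below 0.05, and the median log2 fold change was -0.75. The 7 became 2 of 15, 4 of 15 and 10 of 18 tested without WT replicates 1, 2 and 3, where 3.04%, 3.07% and 11.7% of all genes were lower. They became 9, 5 and 3 of 18 without mutant replicates 1, 2 and 3, where the share was 16.6%, 3.72% and 3.40%. The median without WT replicate 1 was -0.70. Genes of the chains that mammals use for interleukin 2 and interleukin 15 were among the 15 tested. *il2rb*, their signaling beta chain, had 4.04, 2.51 and 1.25 CPM in WT libraries, against 0.752, 0.346 and 0.293 CPM in mutant libraries. The groups did not overlap, and the log2 fold change was -2.43 (SE 0.60, edgeR adjusted p = 0.260). It was -2.04 (SE 0.44) with a term for the split, and the log2 differences within the split, drawn toward 0 at such low levels, were -1.90 and -1.60. *il2rga*, a gene of the common gamma chain, had 11.8, 6.15 and 4.86 CPM in WT and 3.83, 2.51 and 3.03 CPM in mutant ventricles. Each mutant library was lower than each WT library, with a log2 fold change of -1.28 (SE 0.40, edgeR adjusted p = 0.387).

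*il12rb2*, a chain of the interleukin 12 receptor on T and natural killer cells, had 3.73, 1.97 and 1.02 CPM in WT and 0.889, 0.519 and 0.195 CPM in mutant ventricles. The groups did not overlap, and the log2 fold change was -2.02 (SE 0.66, edgeR adjusted p = 0.395). *il13ra2*, which in mammals acts mainly as a decoy for interleukin 13, had 2.02, 2.57 and 1.96 CPM in WT and 0.820, 1.38 and 0.488 CPM in mutant ventricles. It did not overlap either, with a log2 fold change of -1.27 (SE 0.46, edgeR adjusted p = 0.416) and within-split values of -1.33 and -1.10. *il21r.1*, *il10ra* and *il13ra1* had log2 fold changes of -1.22 (SE 0.43), -1.16 (SE 0.49) and -0.75 (SE 0.32) and overlapped between the groups. For *il10ra* the side of the split with *mt-co1* reads gave 0.05. *il6r*, the receptor of interleukin 6, had a log2 fold change of -1.20 (SE 0.58, edgeR adjusted p = 0.501), *il4r.1* one of -0.55 (SE 0.51), and *il11ra* one of 0.04 (SE 0.39), which was below 0 with limma on FPKM. *il7r*, which is also among the T cell markers below, was not tested and had 59, 13 and 1 counts in WT and 7, 0 and 2 in the mutants.

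All 7 tested TNF ligands were below 0 (6 of 7 with DESeq2 or without WT replicate 1), with a median log2 fold change of -0.61. At an unadjusted p below 0.05, 1 was lower. It was 3 of 8 tested without WT replicate 3 or mutant replicate 1, where 11.7% and 16.6% of all genes were lower. The 1 gene, *tnfsf12*, encodes the relative of mammalian TWEAK, which signals through a receptor induced by injury. It had 32.1, 30.5 and 24.6 CPM in WT libraries, against 16.3, 13.9 and 20.8 CPM in mutant libraries. The groups did not overlap, and the log2 fold change was -0.78 (SE 0.23, edgeR adjusted p = 0.355), with -0.94 and -0.53 within the split. *tnfb*, the second TNF gene of zebrafish, had a log2 fold change of -0.61 (SE 0.45, edgeR adjusted p = 0.586), and *tnfsf10l*, of the TRAIL group of death ligands, one of -0.77 (SE 0.48, edgeR adjusted p = 0.555). *tnfsf14* was not tested and had 37, 27 and 0 counts in WT and 2, 1 and 0 in the mutants.

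All 10 TNF receptors were detected. Of 9 tested, 6 were below 0 (9 with limma on FPKM), 2 were lower at an unadjusted p below 0.05 and none separated the groups. The 2 became 4 of 10 tested without WT replicate 3 or mutant replicate 1, where 11.7% and 16.6% of all genes were lower. They became 0 without any other library, where 3.04% to 3.72% of all genes were lower. The median log2 fold change was -0.53, and -0.18 without WT replicate 1. *tnfrsf1b*, the TNF receptor of leukocytes in mammals, had 10.2, 7.28 and 3.84 CPM in WT and 4.58, 1.56 and 2.25 CPM in mutant ventricles, giving a log2 fold change of -1.33 (SE 0.50, edgeR adjusted p = 0.421) in which WT replicate 3 lay below mutant replicate 1. *tnfrsf1a*, the receptor that most cells carry in mammals, had 58.8, 45.4 and 21.1 CPM in WT and 49.9, 18.1 and 18.7 CPM in mutant ventricles. Its level followed the *mt-co1* split, and within the split the log2 difference was -0.05 and -0.19, beside -0.53 (SE 0.48) in the fit. *tnfrsf11a*, the receptor known as RANK in mammals, had a log2 fold change of -0.68 (SE 0.26, edgeR adjusted p = 0.438). *tnfrsfa* had 47.9, 46.5 and 50.9 CPM in WT and 55.0, 47.8 and 47.0 CPM in mutant ventricles, and *tnfrsf21*, a death receptor, had 15.3, 15.1 and 14.3 CPM in WT and 16.8, 16.3 and 14.6 CPM in mutant ventricles. Their log2 fold changes were 0.04 (SE 0.19) and 0.10 (SE 0.20), each smaller than its error and each below 0 with limma on FPKM.

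All 9 genes named for TNF induction were tested, with a median log2 fold change of -0.45, which was -0.22 without WT replicate 1. All overlapped between the groups. At an unadjusted p below 0.05, 2 were lower. The 2 became 0, 1 and 3 without WT replicates 1, 2 and 3, where 3.04%, 3.07% and 11.7% of all genes were lower. They became 4, 1 and 1 without mutant replicates 1, 2 and 3, where the share was 16.6%, 3.72% and 3.40%. *tnfaip2b* had 21.9, 6.98 and 1.80 CPM in WT and 2.05, 1.90 and 3.22 CPM in mutant ventricles. WT replicate 3 lay below every mutant library, and the log2 difference was -2.52 on the side of the split without *mt-co1* reads and 0.43 on the other. Its log2 fold change of -2.11 (SE 0.77, edgeR adjusted p = 0.416) was -0.88 without WT replicate 1. *tnfaip8l2a*, a relative of a brake on lymphocyte activation in mammals, had a log2 fold change of -1.16 (SE 0.43, edgeR adjusted p = 0.419), and *tnfaip3*, whose product A20 limits NF-κB signaling, one of -1.11 (SE 0.60, edgeR adjusted p = 0.528). *tnfaip6*, whose product binds hyaluronan in inflamed matrix, had 22.5, 25.4 and 30.6 CPM in WT and 18.1, 37.9 and 32.4 CPM in mutant ventricles. Its log2 fold change was 0.17 (SE 0.29), and below 0 with limma on FPKM.

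**Figure D5:**
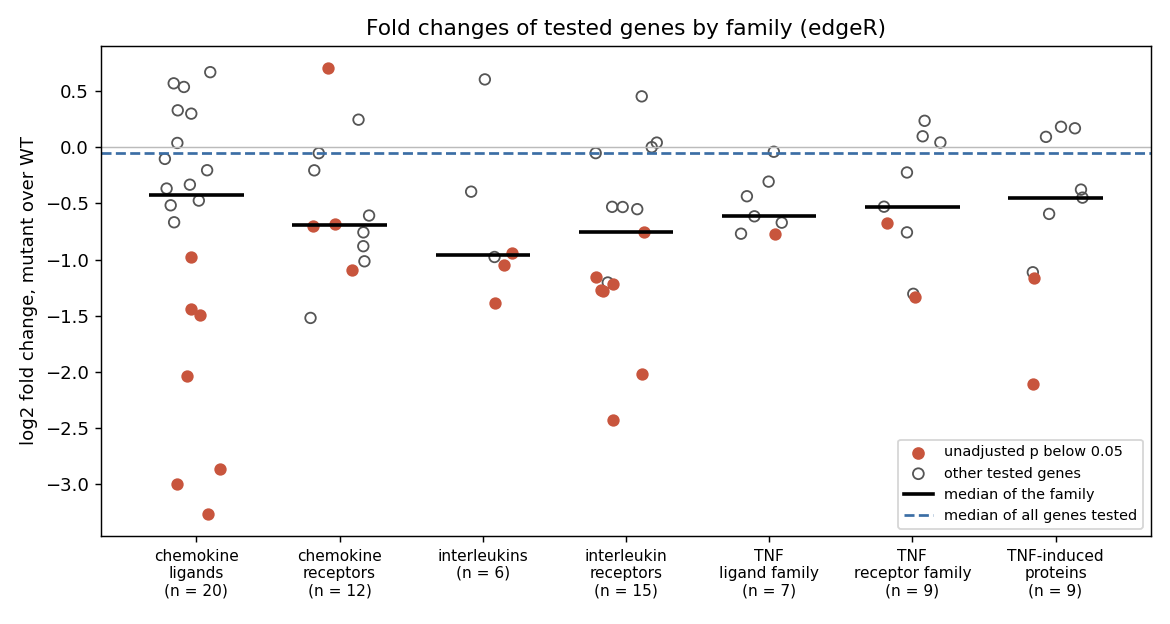
Log2 fold changes (mutant over WT) of the 78 tested genes by family, each point 1 gene. The medians were -0.42 for chemokine ligands, -0.69 for chemokine receptors, -0.96 for interleukins, -0.75 for interleukin receptors, -0.61 for TNF ligands, -0.53 for TNF receptors and -0.45 for TNF-induced genes, beside -0.05 for all genes tested.

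Genes downstream of these receptors were taken from a list of 60 Jak, Stat, Socs, NF-κB, Traf, inflammasome and G protein signaling genes. The list gave 59 tested genes, with *socs3a* counted under each of 2 identifiers (log2 fold changes of -0.50 and -0.68). Of these, 46 (78.0%, against 53.1% of all genes tested) were below 0, and the median log2 fold change was -0.50. At an unadjusted p below 0.05, 7 (11.9%, against 6.35%) were lower and 0 higher, and 0 passed the adjusted threshold in edgeR. The 7 became 2, 4 and 20 without WT replicates 1, 2 and 3, where 3.04%, 3.07% and 11.7% of all genes were lower. They became 22, 2 and 1 without mutant replicates 1, 2 and 3, where the share was 16.6%, 3.72% and 3.40%. Without WT replicate 1 or mutant replicate 2 or 3, the list thus lay near or below the share of all genes. The median without WT replicate 1 was -0.24. Of the 7, *cish* and *socs1a* encode feedback inhibitors of Jak-Stat signaling, with log2 fold changes of -1.04 and -1.58. *nfkb2*, an NF-κB subunit, had -0.92, the NF-κB inhibitors *nfkbib* and *nfkbiaa* had -0.76 and -0.49, and the Traf adaptors *traf2a* and *traf3* had -0.83 and -0.82. A list of 61 other cytokines and receptors gave 36 tested genes, of which 28 (77.8%) were below 0, with a median of -0.52, and -0.29 without WT replicate 1. There, 7 (19.4%) were lower at an unadjusted p below 0.05, among them *csf1ra* (-1.34) and *csf1rb* (-1.37), the receptors of Il34, and 1 was higher, *hmgb1b* (0.59). The 7 became 2 of 35, 3 of 37 and 14 of 40 tested without WT replicates 1, 2 and 3. They became 18 of 40, 2 of 40 and 2 of 39 without mutant replicates 1, 2 and 3. The shares of all genes were the same as for the list of signaling genes. The cytokine *il11a* had a log2 fold change of -2.61 and the granulocyte receptor gene *csf3r* one of -1.64.

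Many of these receptors are carried by leukocytes, so marker genes of cell types were summed per library. Macrophage markers (15 of 15 found, none at 0) had 1592 to 2394 CPM in WT and 1241 to 1432 CPM in mutant libraries, which did not overlap, and 13 of the 15 were below 0. Most of that sum came from *cd74a* and *cd74b*, antigen presentation genes. Without them, a sum chosen after seeing the data, the other 13 markers had 906, 772 and 473 CPM in WT and 565, 496 and 535 CPM in mutant libraries, which overlapped. T cell markers (9 of 10 found) had 5.09 to 31.6 CPM in WT, with replicate 1 highest, and 1.56 to 4.92 CPM in mutant libraries. The groups were apart only narrowly, at WT replicate 3 and mutant replicate 1. Only *cd4-1*, *zap70* and *lck* had enough reads to be tested. All 3 were lower at an unadjusted p below 0.05, where 6.35% of all genes tested were. Without WT replicate 1, or with limma on either FPKM scale, 1 of the 3 was, and without WT replicate 2 it was 2. In the list, *il7r* and *ccr7* are themselves among the 150 genes. Neutrophil markers (9 of 10 found) ranged from 315 to 349 CPM in WT and from 271 to 432 CPM in mutant libraries, with 7 of 9 above 0, but 3 of 9 with limma on FPKM. B cell markers (6 of 8 found, 13.7 to 31.5 against 9.68 to 21.7 CPM), endothelial markers (9 of 10 found, 574 to 735 against 519 to 731 CPM) and cardiomyocyte markers (8 of 10 found, 22994 to 27024 against 21864 to 31350 CPM) overlapped between WT and mutant libraries. So did epicardial and fibroblast markers (4675 to 5814 against 3907 to 5686 CPM) and, narrowly, thrombocyte markers (285 to 371 against 370 to 382 CPM). Of the 10 epicardial and fibroblast markers, 7 were below 0 (10 with limma on FPKM), with a median log2 fold change of -0.33, and *tbx18*, a transcription factor of the epicardium, had -1.32 (SE 0.35, edgeR adjusted p = 0.314) without overlap. Erythrocyte markers (4 of 8 found, with most of the sum from *hbaa1*) were lowest in WT replicate 1, at 7205 CPM. They reached 33231 CPM in WT and 35769 CPM in mutant libraries. All 4 were above 0, with a median log2 fold change of 0.59, but 1 was below 0 with limma on FPKM. The part of these cell types in the values of the cytokine and receptor genes was not tested.

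Neighboring copies limit how single genes can be read. Of the 150 genes, 55 lie in 19 groups of neighbors less than 100 kb apart, and the sources used here do not say which program counted the reads or whether strand was used. Values of single *ccl34b*, *ccl39*, *cxcl11* and *cxcr3* genes are therefore uncertain where copies share sequence, and the sums over a family are less so. Nothing states whether the pooled fish of the 3 libraries of a group came from separate clutches, so the spread behind each test is that between these libraries, which may be partly technical.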

How the data were processed

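RNA of 3 WT and 3 *grl5nt-/-* libraries was analysed, 6 of the 12 samples in the series. Samples with *grl* overexpression, and the controls to them, were not used here. The authors used HISAT2 (2.0.4) to map reads to GRCz10 and StringTie (1.3.0) to obtain FPKM. The deposited counts are whole numbers per gene with no scaling. The deposited FPKM gave levels per length and served in alternatives. The counting program is not given in the sources used here. A zebrafish name table held 144 of the 150 identifiers.

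The two-sided quasi-likelihood test of edgeR 4.0.16 (R 4.3.3) was run on the counts with TMM factors and genotype as the sole term. It covered the 15602 genes that passed filterByExpr, and p-values were adjusted over them by Benjamini-Hochberg. The members and lists were chosen with earlier results of these data known. Genes named with values are the 12 tested with the smallest p, the 6 with the highest WT FPKM, and a list known from heart, wound or leukocyte biology. Others, at an unadjusted p below 0.05, with reads in few libraries or close in name to a named gene, were chosen after their values were seen. Alternatives were DESeq2 1.42.0 as the test or for size factors, a filter at a mean of 1 FPKM or none, limma 3.58.1 on log2 FPKM with a pseudocount of 1 or 0.1, a replicate block, a term for the *mt-co1* split, and the removal of each library in turn. An exact permutation test of 3 libraries against 3 cannot go below p = 0.1. The scripts were tested on simulated counts. No sequences are shown.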

Additional observations from a re-analysis of the deposited data

How the results depend on the processing

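The number of genes with an adjusted p below 0.05 was 12 of all genes in edgeR, 242 with DESeq2, 241 with a term for the *mt-co1* split, 132 with the replicate number as a block, 39 without the filter, 5 with limma on log2(FPKM + 1), 4 at a mean of at least 1 FPKM, and 3 to 30 with each library left out. Of the cytokine, chemokine and receptor genes it was 0 in edgeR, 5 with DESeq2, 4 with the block (*ccl39.5*, *il2rb*, *ccl34b.8* and *ccl34b.4*), 2 with the split term (*ccl39.5* and *cxcl14*), and 0 to 1 with each library left out (*ccl34b.4* without WT replicate 3). The labels do not say whether replicate numbers pair a WT with a mutant library. Deviations of same-numbered libraries correlated at 0.593, -0.338 and 0.385 across genes, which are not independent. Every WT and mutant library on the same side of the *mt-co1* split correlated above 0, and every pair across it below 0. The correlations thus follow the split and cannot show whether libraries were paired. Genes lower at an unadjusted p below 0.05 numbered 25, 40 without the filter (of 139 tested), 18 to 31 in the other settings, and 10 to 41 with each library left out. Of all genes, 6.35% were lower at that p in edgeR and 6.21% without the filter. The share was 5.6% to 10.98% in the other settings, with 10.98% for the replicate block, which gave the 31 genes. With each library left out, 3.04% to 16.6% of all genes were lower at that p. Genes higher at that p numbered 1, with 0 and 0 in limma on either FPKM scale, and 0 to 1 with a library left out. Genes whose groups did not overlap numbered 15 below, with 17 to 50 when a library was left out. Above, they numbered 1, with 3 with DESeq2 size factors, 3 without the filter, 0 and 0 in limma, and 2 to 6 with a library left out. With a library left out, fewer libraries have to separate. The shares of all genes without overlap were not counted in these other settings. The median log2 fold change of -0.60 was -0.83 to -0.44 in the other settings and -0.88 to -0.32 with a library left out. FPKM scaling moved the median of all genes to -0.21 (+ 1) and -0.33 (+ 0.1). Relative to it the median here was -0.32 and -0.50. On that scale all genes at an unadjusted p below 0.05 split into 338 and 341 higher and 1217 and 1223 lower, beside 658 and 991 in edgeR.

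Of 46 named genes tested, 37 kept the sign of their log2 fold change in every setting in which they were fitted (14, or 13 for the 6 below a mean of 1 FPKM) and 9 did not. *il2rgb* was not among the 46. In limma on log2(FPKM + 1) and log2(FPKM + 0.1), the values were -0.052 and -0.056 for *ackr3b*, -0.15 and -0.26 for *il11ra*, -0.17 and -0.18 for *tnfaip6*, -0.15 and -0.19 for *tnfrsf21*, and -0.25 and -0.26 for *tnfrsfa*. The split term gave 0.075 for *cxcl12b*, 0.025 for *cxcr3.2* and -0.10 for *tnfaip6*. A mean of at least 1 FPKM gave -0.0087 for *il11ra* and -0.0058 for *tnfrsfa*. With each library left out, the range was -0.26 to 0.051 for *ccl25b*, -0.60 to 0.070 for *cxcl12a*, -0.59 to 0.010 for *cxcl12b*, -0.19 to 0.28 for *cxcr3.2*, -0.20 to 0.33 for *il11ra*, -0.044 to 0.45 for *tnfaip6* and -0.0080 to 0.095 for *tnfrsfa*. The cause of these differences between settings was not tested. Where both groups are at or under 3 counts in each library, depth cannot show a difference.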
